A study of Homo sapiens with 12 samples.

Results

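Expression of 10 genes of inflammatory signalling was followed through the exposure of liver spheroids to parenteral nutrition. They were the cytokine IL11, the IL-1 receptors IL1R1 and IL1R2, the IL-6 receptor chains IL6R and IL6ST, the chemokine CXCL8, the NF-kappaB inhibitor NFKBIA, the NF-kappaB subunit RELB, the TNF family receptor CD40 and the growth factor KITLG. The genes were chosen with earlier results of these data known and were taken by symbol from the expression table. All 10 were found among its 16705 genes. All 10 also passed the filter for testing, an average of 0.5 FPKM or more across the libraries, as did 11713 genes in all. IL11 passed it only through the libraries at 144 h and CXCL8 only through those at 24 h. FPKM is a number of sequenced fragments scaled by transcript length and library size, so that levels can be set side by side between genes.

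RNA was sequenced from 12 libraries of spheroids grown from 2 human cell lines, 3 libraries in each of 4 groups. The groups were spheroids left untreated or exposed to 1% total parenteral nutrition (TPN), an intravenous feed of amino acids, glucose, lipids, electrolytes, vitamins and trace elements, and collected after 24 h or 144 h. C3A, a clone of the hepatoma line HepG2, made up most of the cells seeded, and LX-2, a line from human hepatic stellate cells, made up the rest, in all 4 groups. The comparison of both times asked how short and long exposure alter gene expression, and each library pooled many spheroids.

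Such a model holds a tumour-derived hepatocyte line and an immortalized stellate line, but no immune cells were added. The summed FPKM of a library lay between 561657 and 583722, and within a group the log2 values of any 2 libraries correlated at 0.996 (lowest 0.9958). Fragment steps in low genes gave an estimated 1.81e+07 fragments per library, at which 1 fragment was worth 0.0261 FPKM for IL11 and 0.04 FPKM for CXCL8. All 10 hepatocyte markers were expressed, with summed levels of 14700 to 15100 FPKM in untreated and 13900 to 14000 in exposed spheroids at 24 h, and of 18700 to 19900 and 15600 to 16700 at 144 h. Of 10 stellate markers 8 passed the filter, while DES and LUM stayed under 0.1 FPKM in every group mean. At 24 h the summed level of the stellate markers was 97.0 to 103 FPKM untreated and 83.8 to 87.8 exposed. At 144 h it was 54.3 to 59.7 untreated and 49.0 to 51.5 exposed. Much of this sum was ACTA2, with 57.8 FPKM in untreated spheroids at 24 h and 47.9 at 144 h. PTPRC, ITGAM, MARCO, CSF1R, CD3E and TYROBP, which define leukocytes and macrophages, were under 0.1 FPKM in every group mean. TYROBP reached 0.2 FPKM in untreated replicate 1 at 144 h. CD163 was not among the listed genes, whereas CD68, CD14 and LYZ passed the filter. No endothelial marker passed it, and of the cholangiocyte markers KRT7 was under 0.1 FPKM while 4 others passed. In bulk RNA, fewer cells of a type and less RNA per cell cannot be told apart.

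As background, cytokines of the IL-6 family, IL11 among them, bind a private receptor chain and then the shared chain IL6ST (gp130), which activates JAK kinases and STAT3. IL-1 acts through IL1R1 with its partner IL1RAP, while IL1R2 binds IL-1 without passing on a signal. IL-1 and TNF family signals free NF-kappaB from its inhibitor NFKBIA (IkappaBalpha), and NF-kappaB in turn transcribes NFKBIA and CXCL8. In the liver, IL-6 and IL-1 are known for switching on acute phase proteins in hepatocytes.

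The stretches of 300 bases around the start sites of IL11, NFKBIA and CXCL8 are shown because these genes stand for the strongest rise, the only fall at 144 h and a gene without a call among the 10. They were taken from RefSeq on GRCh38.p14, 250 bases before to 50 bases after the start, and read 5' to 3' on the gene's strand. Capitals mark TGANTCA (AP-1), GGG and CC with 5 bases between them (kappaB-like) and TGANNNNGC (antioxidant response element-like), each searched on both strands, and the matches in capitals do not overlap.
IL11 chr19:55370414-55370713 minus strand: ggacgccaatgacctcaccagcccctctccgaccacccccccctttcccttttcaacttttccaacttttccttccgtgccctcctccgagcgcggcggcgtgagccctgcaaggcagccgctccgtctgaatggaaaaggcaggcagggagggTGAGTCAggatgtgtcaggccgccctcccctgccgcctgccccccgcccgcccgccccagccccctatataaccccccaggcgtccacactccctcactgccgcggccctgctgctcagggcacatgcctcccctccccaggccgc
NFKBIA chr14:35404700-35404999 minus strand: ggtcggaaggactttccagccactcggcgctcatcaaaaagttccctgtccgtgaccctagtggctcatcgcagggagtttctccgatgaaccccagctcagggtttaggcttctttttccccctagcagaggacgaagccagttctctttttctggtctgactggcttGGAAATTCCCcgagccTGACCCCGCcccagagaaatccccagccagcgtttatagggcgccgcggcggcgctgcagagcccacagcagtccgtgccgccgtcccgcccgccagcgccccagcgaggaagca
CXCL8 chr4:73740319-73740618 plus strand: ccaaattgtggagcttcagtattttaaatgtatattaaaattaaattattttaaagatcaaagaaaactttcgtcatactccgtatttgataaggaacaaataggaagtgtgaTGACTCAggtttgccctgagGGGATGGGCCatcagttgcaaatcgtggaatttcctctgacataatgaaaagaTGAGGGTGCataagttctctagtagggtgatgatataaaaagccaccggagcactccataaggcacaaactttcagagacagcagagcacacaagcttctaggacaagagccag
In IL11 the AP-1 match began at position -96 from the start site. In NFKBIA the kappaB-like match began at -81 and the antioxidant response element-like match at -65. CXCL8 held all 3, beginning at -137 for AP-1, -117 for the kappaB-like match and -64 for the antioxidant response element-like match. Of the 10 genes 8 had at least 1 promoter in the RefSeq set (RELB and CD40 are not shown), and these 8 had 12 promoters, 4 of them for IL1R1 and 2 for IL1R2. Of the 12 promoters 6 held the kappaB-like letters, 3 the AP-1 letters, 5 the antioxidant response element-like letters and 1 the STAT letters TTCNNNGAA. Over all 35116 promoters the shares were 58.7%, 7.71%, 41.8% and 7.66% in the same order. The matches describe letters in the sequence, not bound sites, and a site spelled with other letters is left unmarked.

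TPN moved few of the 10 genes at 24 h and most of them at 144 h. A gene was said to have risen or fallen when its limma p, adjusted over the 11713 genes by the Benjamini-Hochberg method, was below 0.05, with fold changes on the log2(FPKM + 0.1) scale, which understates changes of low genes. At 24 h, IL6R rose and IL1R1 and NFKBIA fell, so that 1 gene rose and 2 fell, against 5.04% and 5.46% of all genes tested. At an unadjusted limma p below 0.05 there were 2 rises and 3 falls, and 6 of the 10 genes had groups that did not overlap, as had 29.9% of all genes. None of the 10 passed an absolute log2 fold change of 0.58 as well, the study's limit, which 0.914% of all genes did. At 144 h, IL11, IL1R1, KITLG, IL1R2, CD40 and IL6R rose and NFKBIA fell. These 6 rises and 1 fall compare with 24.2% and 28.3% of all genes, and 5 rises and 1 fall past the limit of 0.58 with 5.75% and 3.73%. The groups did not overlap in 7 of the 10, against 57.3% of all genes. The median log2 fold change of the 10 genes was -0.07 at 24 h and 0.51 at 144 h, beside -0.0045 and -0.0177 for all genes. As the 10 were chosen with earlier results of these data known, the shares are set beside them as description only.

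The study describes the replicates as independent experiments, while the labels give a replicate number alone, and all p values measure the spread between these libraries.

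**Figure D1:**
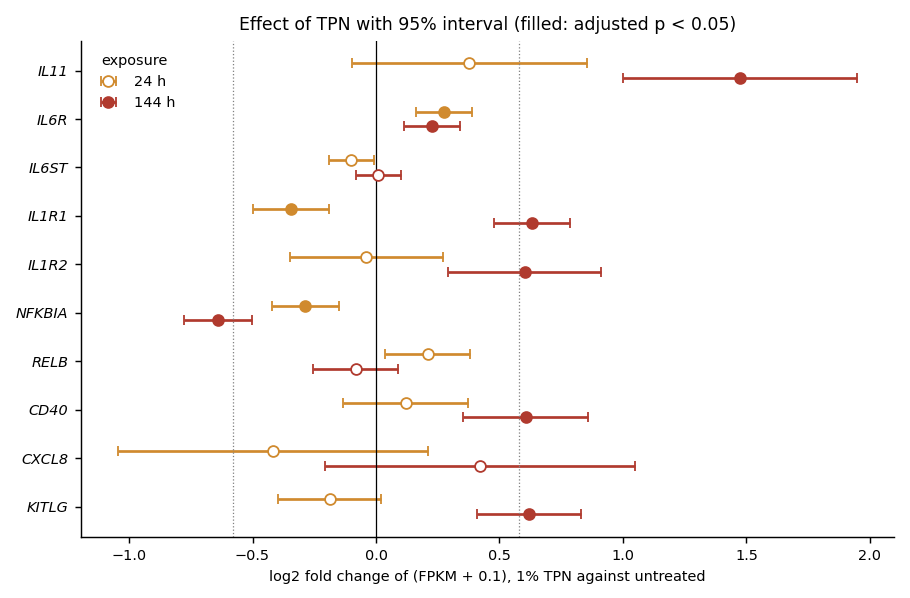
Log2 fold change of FPKM + 0.1 for 1% TPN against untreated spheroids (x axis) for each of the 10 genes (y axis), with 95% limma intervals. Colours give the exposure of 24 h or 144 h, filled points have an adjusted p below 0.05, and dotted lines mark 0.58 in either direction: 3 points are filled at 24 h and 7 at 144 h.

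IL11, on chromosome 19 (55364382 to 55370463, GRCh38.p13; gene 3589), encodes a cytokine of the IL-6 family. At 24 h it was barely detected, with 0.08, 0.14 and 0.31 FPKM in untreated and 0.21, 0.23 and 0.28 FPKM in exposed libraries. At 144 h untreated libraries had 3.66, 3.48 and 4.17 FPKM, and exposed libraries 10.07, 11 and 10.82 FPKM. The lowest exposed library at 144 h thus lay above every other library, and the untreated libraries at 144 h above all those at 24 h. In estimated fragments, the 24 h libraries held between 3 and 12 and the 144 h libraries between 133 and 421. With means of 0.177 and 0.24 FPKM at 24 h, IL11 passed the filter of 0.5 FPKM only through its 144 h libraries. Its calls that set 144 h against 24 h carry that selection. With TPN, IL11 rose at 144 h by 1.47 on the log2 scale (SE 0.22, limma adjusted p = 8.19e-05, n = 3), from 3.77 ± 0.358 to 10.6 ± 0.493 FPKM (mean ± SD), a ratio of 2.82. At 24 h the log2 difference was 0.38 (adjusted p = 0.33), but without untreated replicate 3, the library at 0.31 FPKM, it was 0.70 (adjusted p = 0.0106). IL11 rose with time while 7 of 8 tested stellate markers fell in untreated libraries (median log2 change -2.35). At 144 h it rose with TPN while 5 of 8 stellate markers fell (median -0.73). The part of this shift in the result was not tested.

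The receptor chains moved less. IL6R, on chromosome 1 (154405343 to 154469450; gene 3570), the chain that binds IL-6, had 9.14, 8.83 and 9.13 FPKM untreated and 11.13, 11.03 and 10.68 FPKM exposed at 24 h. At 144 h it had 9.19, 10.59 and 10.28 FPKM untreated and 11.95, 11.30 and 11.91 FPKM exposed. At each time all exposed libraries lay above all untreated ones. IL6R rose by 0.27 at 24 h (SE 0.0527, limma adjusted p = 0.00412) and by 0.23 at 144 h (adjusted p = 0.0026) on the log2 scale, and the difference between these effects, -0.05 (95% interval -0.21 to 0.11), was not called (adjusted p = 0.663).

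IL6ST, on chromosome 5 (55935095 to 55994963; gene 3572), is the signalling chain that the whole family shares. It had 19.58, 20.30 and 20.59 FPKM untreated and 18.45, 18.68 and 19.23 FPKM exposed at 24 h, and 20.99, 19.76 and 19.21 against 20.88, 20.04 and 19.40 FPKM at 144 h. The 24 h groups did not overlap, whereas the 144 h groups did. Neither difference was called, with log2 values of -0.10 at 24 h (95% interval -0.19 to -0.01, limma adjusted p = 0.16) and 0.01 at 144 h (-0.08 to 0.10, adjusted p = 0.875).

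**Figure D2:**
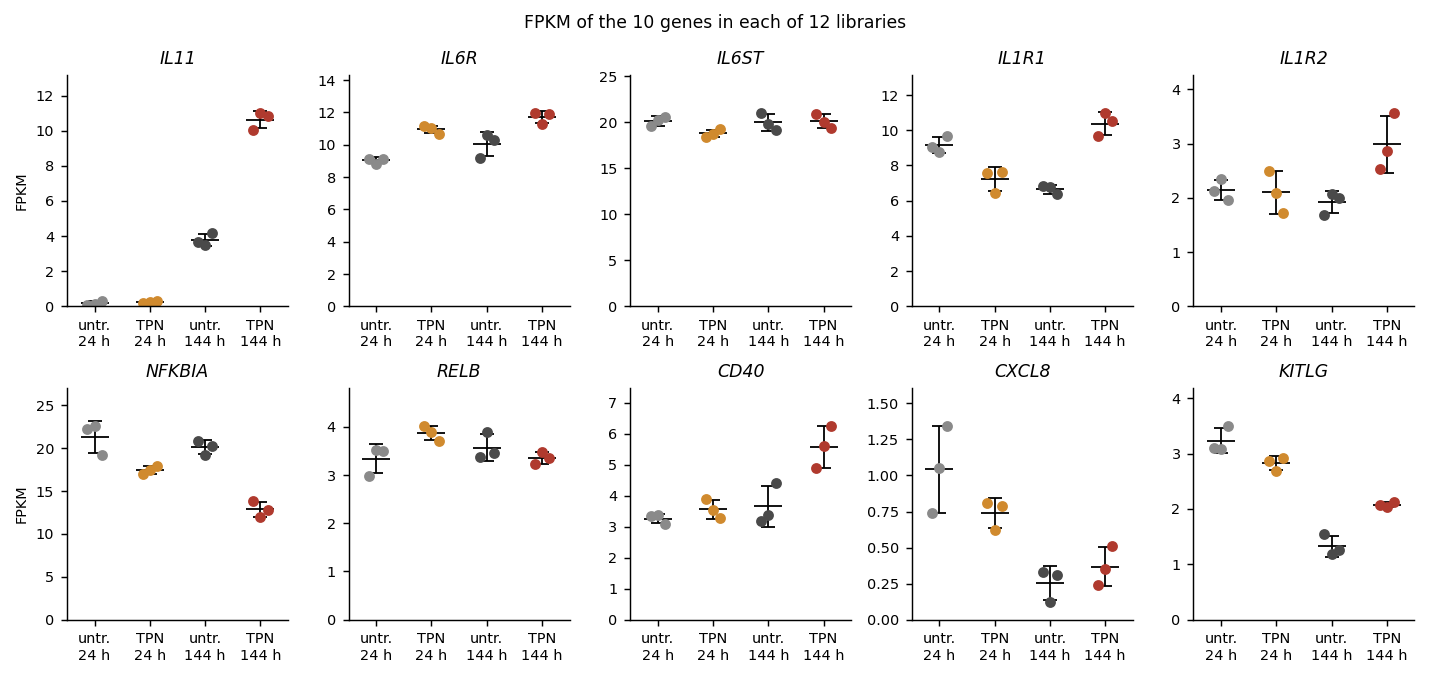
FPKM (y axis, from 0) of the 10 genes in the 12 libraries, grouped by treatment and time (x axis). Coloured points are libraries, and black bars give the mean ± SD of 3. IL11 stands at 10.07 to 11 FPKM in exposed spheroids at 144 h, above all other libraries, and NFKBIA at 12 to 13.80 FPKM, below them.

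Beside IL11 and IL6R, the ligands LIF and CLCF1 and the receptors OSMR and IL27RA rose at 144 h. Of 29 genes in a list of this family and of JAK-STAT signalling, 23 were tested, with 3 rises at 24 h, and 11 rises and 4 falls at 144 h, with medians of 0.02 and 0.21. LIF, a ligand of the same family, had 3.84 ± 0.261 FPKM untreated and 7.40 ± 0.257 exposed at 24 h, and 5.10 ± 0.182 and 15.1 ± 0.763 at 144 h. It rose at both times, by 0.93 and by 1.54 on the log2 scale (limma adjusted p = 2.86e-07 and 2.82e-10). CLCF1, another ligand, rose at 144 h by 2.63 (adjusted p = 6.44e-05), where untreated libraries had 0.00, 0.22 and 0.04 FPKM and exposed ones 0.83, 0.71 and 1.30, so the fold rests on few fragments and on the pseudocount. IL6 itself was below the filter, with at most 0.31 FPKM in any library and 0 in 5 of the 6 libraries at 144 h.

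OSMR, which pairs with IL6ST to bind oncostatin M, had 15.67, 17.12 and 15.18 FPKM untreated and 19.07, 19.32 and 19.24 exposed at 24 h, then 20.63, 20.30 and 18.71 against 44.34, 46.74 and 44.54 FPKM at 144 h. No groups overlapped between treatments, and OSMR rose by 0.27 and by 1.18 on the log2 scale (limma adjusted p = 0.00294 and 4.15e-10). IL11RA, the chain private to IL11, moved the other way from its ligand at 144 h, from 3.72 ± 0.549 to 2.89 ± 0.181 FPKM (log2 -0.34, adjusted p = 0.00817). IL27RA, a receptor chain for IL-27, rose at 144 h by 0.28 (adjusted p = 0.0272), from 3.36 ± 0.348 to 4.11 ± 0.613 FPKM with overlapping libraries. LIFR was called at neither time, with group means of 3.61 to 4.49 FPKM. Downstream at 144 h, the kinase JAK1 rose by 0.30 and STAT3 by 0.37, while TYK2 fell by 0.20 (adjusted p = 4.23e-05, 1.09e-06 and 0.00724). IL27RA, JAK1, STAT3 and TYK2 were named after their values were seen.

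Both SOCS genes that were named, feedback inhibitors of JAK-STAT signalling, moved in opposite directions at 144 h. SOCS3 rose by 1.03 (limma adjusted p = 9.05e-05), from 2.43 ± 0.436 to 5.03 ± 0.537 FPKM, whereas SOCS1 fell by 0.65 (adjusted p = 0.00125), from 5.00 ± 0.837 to 3.14 ± 0.184 FPKM.

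**Figure D3:**
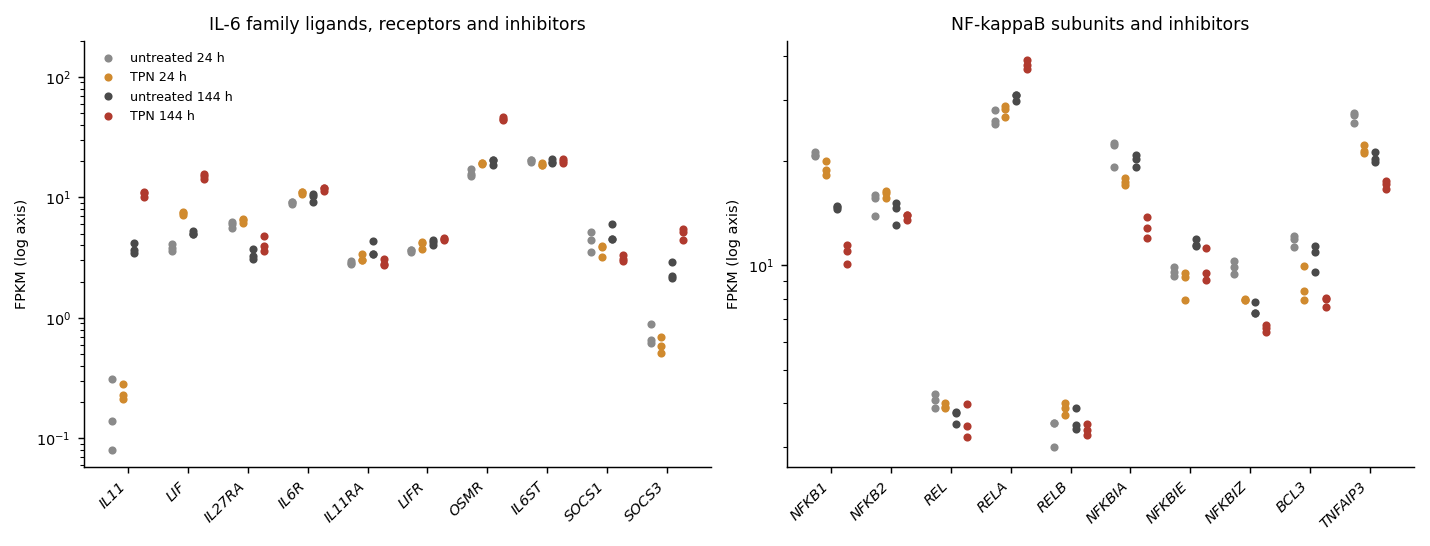
FPKM on a log axis of some IL-6 family genes (left) and of the NF-kappaB subunits with some genes filed as inhibitors (right) in each of the 12 libraries. Colours give treatment and time. All plotted inhibitors of NF-kappaB fell at 144 h. Of the other genes filed as inhibitors, not plotted, TNIP1 fell and TNIP2 rose by 0.32, while NFKBIB, NFKBID, CYLD and OTULIN had no call. These and NFKBIE were named after their values were seen. At 144 h exposed libraries (red) lie above untreated ones for IL11, LIF, IL6R, OSMR, SOCS3 and RELA. They lie below them for IL11RA, SOCS1, NFKB1, NFKBIA, NFKBIE, NFKBIZ, BCL3 and TNFAIP3, and overlap with them for the other plotted genes.

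IL1R1, on chromosome 2 (102064544 to 102182108; gene 3554), the signalling receptor for IL-1, changed direction between the times. It had 9.05, 8.78 and 9.66 FPKM untreated and 7.60, 6.42 and 7.61 FPKM exposed at 24 h. At 144 h it had 6.82, 6.77 and 6.37 FPKM untreated and 9.65, 10.97 and 10.50 FPKM exposed. Exposed libraries all lay below untreated ones at 24 h and all above them at 144 h. IL1R1 fell by 0.34 at 24 h (SE 0.0711, limma adjusted p = 0.00664) and rose by 0.63 at 144 h (adjusted p = 6.19e-06). The difference between the effects was 0.98 on the log2 scale (95% interval 0.76 to 1.19, adjusted p = 1.47e-05).

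IL1R2, the decoy receptor, lies beside it at 101991805 to 102028544 (gene 7850), 35999 bases from the start of IL1R1 with 0 other listed genes between them. It had 2.13, 2.34 and 1.96 FPKM untreated and 2.50, 2.08 and 1.72 exposed at 24 h, when the groups overlapped and no difference was called (log2 -0.04, limma adjusted p = 0.906). At 144 h it had 1.69, 2.07 and 2 FPKM untreated and 2.53, 2.87 and 3.56 FPKM exposed, with every exposed library above the untreated ones. IL1R2 rose by 0.60 (SE 0.144, adjusted p = 0.00305), a ratio of 1.56 that was also that of IL1R1. Beyond IL1R1, the neighbours IL1RL2, IL1RL1 and IL18R1 had group means of at most 0.0533 FPKM.

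The antagonist and the partner chain of IL1R1 fell at both times. IL1RN, the secreted antagonist of IL1R1, fell by 0.21 at 24 h and by 0.45 at 144 h (limma adjusted p = 0.00992 and 2.38e-06), where it went from 22.0 ± 0.37 to 16.1 ± 0.855 FPKM. IL1RAP, the partner chain of IL1R1, fell by 0.24 and by 0.38 (adjusted p = 0.0166 and 1.17e-04). The ligands IL1A and IL1B did not pass the filter, with at most 0.06 and 0.43 FPKM in any library. IL18BP, which binds IL-18, rose at 144 h by 0.71 (adjusted p = 8.19e-05), from 3.77 ± 0.557 to 6.20 ± 0.846 FPKM. In the list of the IL-1 family and its signal chain 3 of 16 genes tested fell at 24 h, where no rise was called by limma and none had an unadjusted p below 0.05. At 144 h 4 rose and 5 fell, and the medians were -0.05 and -0.04.

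NFKBIA, on chromosome 14 (35401513 to 35404749; gene 4792), encodes the inhibitor that holds NF-kappaB in the cytoplasm, and it fell at both times. It had 22.24, 22.53 and 19.21 FPKM untreated and 17.03, 17.40 and 17.88 FPKM exposed at 24 h, then 20.81, 19.21 and 20.29 against 13.80, 12 and 12.84 FPKM at 144 h. All exposed libraries lay below all untreated ones at each time. The fall was 0.29 on the log2 scale at 24 h (SE 0.0632, limma adjusted p = 0.0102) and 0.64 at 144 h (adjusted p = 1.81e-06), and the effect at 144 h was lower by -0.35 (95% interval -0.55 to -0.16, adjusted p = 0.00905).

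RELB, on chromosome 19 (45001449 to 45038194; gene 5971), a subunit of the non-canonical NF-kappaB pathway, was called at neither time. It had 2.99, 3.52 and 3.51 FPKM untreated and 4.01, 3.89 and 3.71 exposed at 24 h, without overlap (log2 0.21, 95% interval 0.04 to 0.38, limma adjusted p = 0.12). At 144 h the values overlapped, with 3.37, 3.89 and 3.46 FPKM untreated and 3.24, 3.49 and 3.36 exposed (log2 -0.08, -0.26 to 0.09, adjusted p = 0.409).

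Among the other subunits, NFKB1 fell by 0.44 at 144 h (limma adjusted p = 4.52e-06), from 14.7 ± 0.181 to 10.8 ± 0.693 FPKM, and RELA rose by 0.30 (adjusted p = 3.8e-05), from 30.6 ± 0.682 to 37.8 ± 1.15 FPKM. NFKB2 and REL were called at neither time, and no subunit was called at 24 h. NFKBIA was 1 of 11 genes filed as inhibitors in the list of this machinery, and all were tested. Of these 11, 4 fell at 24 h, and 6 fell and 1 rose at 144 h. The filing is the list's own, and whether each acts as an inhibitor here was not tested. NFKBIA, NFKBIZ, BCL3 and TNFAIP3 fell at both times. These last 3, named after their values were seen, fell at 144 h by 0.18, 0.43 and 0.26 (adjusted p = 0.00706, 5.09e-04 and 1.1e-04). IKBKG, a scaffold of the kinase that marks NFKBIA for degradation, rose by 0.64 and 0.87 (adjusted p = 9.27e-08 and 7.18e-10), but it has a near-identical pseudogene copy, so its level is uncertain. TRAF5, an adaptor of TNF family receptors, rose at 144 h by 0.95 (adjusted p = 1.75e-05), from 1.58 to 3.15 FPKM. In all 26 genes tested of this list, 1 rose and 4 fell at 24 h, while at 144 h 5 rose and 7 fell, with medians of 0.04 and -0.04.

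Genes known as NF-kappaB targets did not move one way. Of 20 tested, 5 fell at 24 h, whereas 7 rises and 9 falls were called at 144 h, with medians of -0.05 and -0.13. The list holds 4 of the 10 genes (NFKBIA, RELB, CD40 and CXCL8). It also shares genes with the list of NF-kappaB machinery above. NFKBIA, TNFAIP3 and BCL3, which fell at both times, and NFKB1, NFKBIE and TNIP1, which fell at 144 h, are counted as falls in both. The lists are thus not independent, and most of the 9 falls among targets are shared. Only the falls of CCL20, CD83 and LTB were outside the machinery list, as were all 7 rises. NFKBIE and TNIP1 were named after their values were seen. CEBPD, a transcription factor, rose by 0.86 at 144 h (limma adjusted p = 1.84e-07), from 25.2 ± 2.56 to 45.6 ± 3.63 FPKM. CD83 fell by 0.59 (adjusted p = 0.00514), from 0.730 ± 0.0265 to 0.453 ± 0.0289 FPKM.

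CD40, on chromosome 20 (46118242 to 46142969; gene 958), a receptor of the TNF family that feeds the non-canonical NF-kappaB pathway, rose at 144 h. It had 3.34, 3.36 and 3.08 FPKM untreated and 3.88, 3.53 and 3.27 exposed at 24 h, with overlap and no call (log2 0.12, limma adjusted p = 0.591). At 144 h it had 3.17, 3.36 and 4.42 FPKM untreated and 4.89, 5.61 and 6.23 FPKM exposed. The exposed libraries were all higher, with untreated replicate 3 the closest to them. CD40 rose by 0.61 (SE 0.118, adjusted p = 6.84e-04). Its ligand CD40LG reached at most 0.03 FPKM.

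The wider TNF family had 12 rises and 2 falls among 23 genes tested at 144 h (median 0.24), after 2 rises and 3 falls at 24 h (median 0.0046). Of the 16 receptors tested, 10 rose at 144 h and none fell by limma, also at an unadjusted p below 0.05, whereas at 24 h TNFRSF21 rose and TNFRSF19, named after its values were seen, fell by 0.25 (adjusted p = 0.00258). TNFRSF21, a death domain receptor, rose from 19.43, 19.80 and 20.62 FPKM to 52.85, 57.06 and 56.40 FPKM at 144 h (log2 1.47, limma adjusted p = 2.09e-12), after a rise of 0.36 at 24 h (adjusted p = 1.65e-05). TNFSF9 rose by 0.97 and TNFRSF25 by 0.87 at 144 h (adjusted p = 1.64e-05 and 7.49e-04), while LTB fell by 0.94 to 0.270 ± 0.0954 FPKM (adjusted p = 0.0345). TNFSF14 fell by 0.70 at 24 h (adjusted p = 0.00743) and rose by 0.41 at 144 h (adjusted p = 0.0313).

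CXCL8 (IL-8), on chromosome 4 (73740569 to 73743716; gene 3576), a neutrophil-attracting chemokine, was low throughout and was not called with TPN. It had 0.74, 1.05 and 1.34 FPKM untreated and 0.81, 0.62 and 0.79 exposed at 24 h, and 0.33, 0.12 and 0.31 against 0.24, 0.35 and 0.51 FPKM at 144 h. The treated and untreated values overlapped at both times, and the libraries at 144 h held between 3 and 13 estimated fragments. With means of 0.253 and 0.367 FPKM at 144 h, CXCL8 passed the filter of 0.5 FPKM only through its 24 h libraries. The log2 difference was -0.42 at 24 h (95% interval -1.05 to 0.21, limma adjusted p = 0.426) and 0.42 at 144 h (-0.20 to 1.05, adjusted p = 0.241). The intervals thus left room for a fall at 24 h and a rise at 144 h, and neither was detected at this depth. Its receptors CXCR1 and CXCR2 reached at most 0.02 and 0.05 FPKM.

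Of 10 chemokine and receptor genes tested, 2 fell at 24 h (with limma, no rise at an unadjusted p below 0.05 either), and 2 rose and 4 fell at 144 h, with medians of -0.10 and -0.35. CCL20, the most abundant of them, was named after its values were seen and fell from 363 to 270 FPKM at 144 h (log2 -0.43, adjusted p = 3.14e-05). CCL15 rose by 0.68 (adjusted p = 0.0012), though it overlaps a readthrough gene and its level is uncertain.

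KITLG, on chromosome 12 (88492793 to 88580471; gene 4254), the stem cell factor that binds KIT, fell with culture time and was higher with TPN at 144 h. It had 3.11, 3.09 and 3.49 FPKM untreated and 2.87, 2.68 and 2.92 exposed at 24 h, a difference without overlap that was not called (log2 -0.19, limma adjusted p = 0.268). At 144 h it had 1.54, 1.18 and 1.26 FPKM untreated and 2.08, 2.04 and 2.12 FPKM exposed, without overlap. KITLG rose by 0.62 (SE 0.0969, adjusted p = 1.19e-04), and exposed libraries at 144 h still lay below every library at 24 h. KIT itself reached at most 0.03 FPKM. Among 9 tested genes of haematopoietic growth factors and their receptors 1 fell at 24 h (by limma no rise at an unadjusted p below 0.05), and 3 rose and 3 fell at 144 h (medians -0.10 and -0.11). EPO, the hormone of red cell formation, fell at 144 h from 12.7 ± 0.563 to 4.43 ± 0.661 FPKM (adjusted p = 1.66e-08), and IL34 rose by 0.84 (adjusted p = 0.00389).

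For 6 of the 10 genes the response to TPN at 144 h was unlike that at 24 h by the limma test of the difference itself. It was higher at 144 h for IL11, IL1R1, KITLG, IL1R2 and CD40 and lower for NFKBIA. These 5 and 1 compare with 14.1% higher and 16.3% lower among all genes tested. For CD40 (log2 0.49, adjusted p = 0.0411) and IL1R2 (0.64, adjusted p = 0.0289) the call depended on the setting and on single libraries, and was lost in 12 of 20 and in 7 of 20 alternatives. For CD40 it was lost without the filter (adjusted p = 0.0754), without the trend (0.0599), with quantile normalization (0.053) and with the replicate block (0.0516). It was also lost without replicate 1 or 2 of either untreated group or replicate 2 or 3 of either exposed group (adjusted p up to 0.0973). For IL1R2 it was lost without the filter (0.0561), without untreated replicate 1 or 2 or exposed replicate 2 or 3 at 24 h, or without untreated replicate 1 or exposed replicate 3 at 144 h (up to 0.0694). For CXCL8 and RELB the differences of 0.84 and -0.29 were not called (adjusted p = 0.142 and 0.0666).

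Untreated spheroids also changed between 24 h and 144 h. This comparison shares its libraries with those above, so the values are given side by side only. IL11 and IL6R rose and KITLG, CXCL8 and IL1R1 fell, which makes 2 rises and 3 falls against 20.1% and 52.4% of all genes. The median of all genes was -0.18 on the log2 scale with the deposited values. With median-ratio scaling it was -0.0074, and rises made up 49.6% of the calls in place of 27.8%, so small changes with time depend on the scaling. IL11 rose by 3.89 (limma adjusted p = 2.93e-09), a value that ran from 2.02 to 4.53 with the pseudocount. CXCL8 fell by 1.72 and KITLG by 1.23 (adjusted p = 1.12e-04 and 7.56e-08), and IL1R1 by 0.46 (adjusted p = 5.5e-05). IL11 and CXCL8 passed the filter only through the time at which they were high, so their calls over time carry that selection. IL6R rose by 0.15 (adjusted p = 0.0232), a call lost without untreated replicate 2 or 3 at 144 h, or replicate 2 at 24 h (adjusted p up to 0.108). The IL6R call was also lost with the compared groups modelled alone, without or with a replicate block (limma adjusted p = 0.0524 and 0.0674). Of 8 stellate markers 7 fell over the same time, COL1A1 from 15.1 ± 1.11 to 1.92 ± 0.401 FPKM and VIM from 15.6 ± 1.54 to 2.44 ± 0.762 FPKM. The part of this in the members' changes was not tested.

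In order of level, untreated spheroids at 24 h had NFKBIA (21.3 ± 1.84 FPKM) and IL6ST (20.2 ± 0.52) at the top, whose libraries overlapped. IL1R1 (9.16 ± 0.451) and IL6R (9.03 ± 0.176) followed and overlapped too, as did RELB, CD40 and KITLG at 3.23 to 3.34 FPKM. IL1R2 (2.14 ± 0.19), CXCL8 (1.04 ± 0.3) and IL11 (0.177 ± 0.119) were lowest, with no overlap between them. In exposed spheroids at 144 h the order was IL6ST (20.1 ± 0.742), NFKBIA (12.9 ± 0.901), IL6R (11.7 ± 0.364), IL11 (10.6 ± 0.493) and IL1R1 (10.4 ± 0.669). IL11, lowest of the 10 at 24 h, could there not be separated from IL1R1, whose libraries overlapped with its own. CD40 (5.58 ± 0.671), RELB (3.36 ± 0.125), IL1R2 (2.99 ± 0.525), KITLG (2.08 ± 0.04) and CXCL8 (0.367 ± 0.136) came below, and only RELB and IL1R2 overlapped among these neighbours.

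Acute phase genes, which answer to IL-6 and IL-1, fell more often than they rose at 24 h, and the reverse held at 144 h. Of 15 tested, 9 fell at 24 h (limma called no rise, nor was any at an unadjusted p below 0.05), whereas at 144 h 8 rose and 1 fell, with medians of -0.26 and 0.20. The list also holds SOCS3, the feedback inhibitor described above, which is among the 8 rises and is counted in the IL-6 family list too. HP (haptoglobin) fell by 0.34 and then rose by 1.08 (adjusted p = 0.00531 and 2.54e-08), from 14.4 ± 1.31 to 30.5 ± 2.22 FPKM at 144 h. SERPINA3 fell by 0.26 and rose by 1.04 (adjusted p = 6.74e-04 and 2.13e-10). HAMP (hepcidin) fell at both times, by 2.15 and 2.56 (adjusted p = 8.56e-09 and 2.15e-10). Of 18 AP-1 and immediate early genes tested, 4 rose and 1 fell at 24 h, and at 144 h 10 rose, with medians of 0.10 and 0.19 and no fall at 144 h by limma, also at an unadjusted p below 0.05. EGR1 rose by 1.48 and FOSL1, a subunit of AP-1, by 1.14 at 144 h (adjusted p = 5.46e-07 and 1.69e-08).

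The table's own KEGG annotation gave 2 broader sets. Of 99 tested genes of cytokine-cytokine receptor interaction, 7 of them among the 10 described here, there were 7 rises and 14 falls at 24 h, and 37 rises and 22 falls at 144 h, with medians of -0.02 and 0.18. Of 69 tested genes of NF-kappa B signalling, there were 3 rises and 8 falls at 24 h, and 24 rises and 11 falls at 144 h, with medians of -0.0011 and 0.10. All lists are described by counts, to be read beside the shares of all genes that rose and fell.

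**Figure D4:**
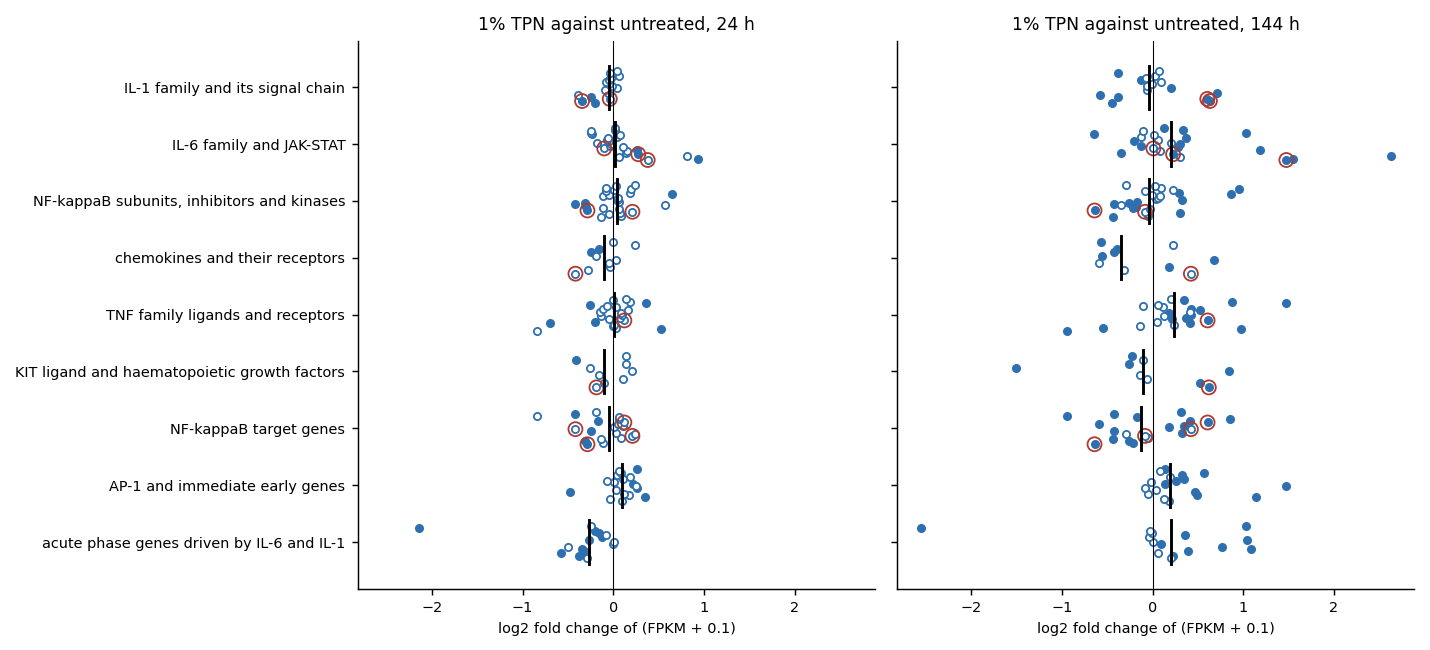
Log2 fold change of FPKM + 0.1 with TPN (x axis) for each tested gene of 9 gene lists (y axis) at 24 h (left) and 144 h (right). Points are genes, filled when the adjusted p is below 0.05, red circles mark the 10 genes, and black bars are list medians: the acute phase median moves from -0.26 to 0.20 and that of the IL-6 family from 0.02 to 0.21.

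Across the 12 libraries, the gene whose log2 values followed IL11 most closely was PTPRN2 (Pearson r = 0.997), and next came PRPH and MKNK2. IL1R1 was followed by IFNGR1 (0.942), the interferon-gamma receptor chain, and by FGG (0.94) and HP (0.936), both acute phase genes. NFKBIA was followed by SERPINF1 (0.974), SELENOP and MIXL1, and KITLG by CORO1C (0.984), NDRG3 and CRYZ. CXCL8 was followed by BRD3OS (0.974), SSBP4 and MTCH1, and CD40 by SLCO4A1 (0.959), POFUT2 and TRIM8. Closest to IL6R were KDM2A (0.935), SLC1A5 and CKMT2, and closest to IL6ST were TCAF1 (0.939), RETSAT and TRIM4. For RELB they were CHURC1-FNTB (0.925), TRMT44 and JARID2, and for IL1R2 QRICH2 (0.911), CYSTM1 and AVPI1. Among the 10 genes themselves the highest value was that of KITLG with CXCL8 (0.907), and the lowest that of NFKBIA with IL6R (-0.852). These values describe 12 libraries in 4 groups and carry the differences between those groups.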

How the data were processed

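RNA of 12 spheroid libraries (3 per group) was sequenced on the DNBSEQ platform from strand-specific libraries. The authors filtered reads with SOAPnuke, aligned them with HISAT2 (version 2.0.4) to GRCh38.p13 and with Bowtie2 (version 2.2.5) to transcripts, and calculated FPKM with RSEM. These FPKM were deposited with 2 decimals and were used without further scaling, and read counts were not used here. Of 16725 table lines, 20 that held only broken annotation were dropped. Gene positions are those of the table, except that strands of the promoters are RefSeq's, since the table lists NFKBIA and IL6ST on the plus strand.

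The 11713 genes averaging 0.5 FPKM or more entered limma 3.58.1 (R 4.3.3) on the log2(FPKM + 0.1) scale, in 1 model of the 4 groups with eBayes and an intensity trend, Benjamini-Hochberg adjusted. The procedure was tested on simulated data. Depth was estimated from fragment steps in 24 short genes, of which 22 lay within 5% of the line, with GENCODE v44 transcript lengths that may differ from the authors' reference. Fragment numbers cover counting error only.

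The members and the 9 gene lists were chosen with earlier results of these data known, and the 2 KEGG sets were read from the table's annotation afterwards. Named are all members, their direct partners, and per list up to 3 genes that rose and 3 that fell most past a log2 fold change of 0.58 without overlap, plus the 3 genes most like each member in pattern. Genes outside this rule are marked in the text as named after their values were seen. Alternatives changed the pseudocount, filter, scaling, model, trend, block and fold threshold, and left out each of 12 libraries. Python 3.11.15 with pandas 2.3.3, numpy 2.4.6 and matplotlib 3.10.9 made tables and figures.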

Additional observations from a re-analysis of the deposited data

Results flagged for a closer look

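For 6 of the 10 genes the effect of TPN differed between the 2 exposure times by the limma test of the difference itself, adjusted over all genes tested. On the log2 scale, the effect at 144 h minus that at 24 h was 0.98 for IL1R1, which fell at 24 h and rose at 144 h. It was 1.10 for IL11, 0.81 for KITLG, 0.64 for IL1R2 and 0.49 for CD40, which had no call at 24 h and rose at 144 h. It was -0.35 for NFKBIA, which fell at both times. The CD40 call was lost in 12 of 20 alternatives (adjusted p up to 0.0973, and 0.0516 with the replicate block), and that of IL1R2 in 7 of 20 (up to 0.0694). IL11 rests on 3 to 12 estimated fragments per library at 24 h, and its adjusted p of 0.0172 became 0.161 with a pseudocount of 0.01. The times also differ in culture age, which cannot be told apart from the length of exposure.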

How the results depend on the processing

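Over 876 values of the 10 genes under the alternatives, 835 kept their direction and side of the threshold, 25 lost a call, 4 gained one and 12 changed sign. Among the values that changed sign, those of IL6ST over time with median-ratio scaling and with quantile normalization gained a call as well. All 7 calls at 144 h and all 3 at 24 h kept theirs where the gene was tested, the NFKBIA call at 24 h with an adjusted p of up to 0.05. With the fold threshold, 0 members were called at 24 h in place of 3 and 3 in untreated spheroids over time in place of 5. A mean FPKM of at least 5 left 4 members to test, of which 3 were called at 144 h, 2 for the difference between times and 2 over time. Of the 8337 genes tested in that setting, 2018 rose and 2731 fell at 144 h. The difference between times was higher in 1231 and lower in 1750, and 1740 rose and 4877 fell over time. Median-ratio scaling called 8 members over time, beside 3884 rises and 3942 falls among all 11713 genes.

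Values of both signs were found for 3 genes. IL1R2 at 24 h ran from -0.17 to 0.09 when single libraries were left out (0.0224 without untreated replicate 2, 0.0892 without TPN replicate 3). IL6ST at 144 h was -0.0055 with total scaling and ran from -0.019 to 0.0446 without single libraries (lowest without untreated replicate 3, -0.0185 without TPN replicate 1). Over time, median-ratio scaling gave 0.0169 for IL1R2, 0.16 for IL6ST and 0.0954 for NFKBIA. Quantile normalization gave 0.14 for IL6ST and 0.069 for NFKBIA. In both settings IL6ST was called as a rise (limma adjusted p = 0.00264 and 0.00746). Without single libraries IL6ST ran from -0.0485 to 0.0151 (0.0151 without untreated replicate 3 at 144 h, 0.0026 without replicate 3 at 24 h). NFKBIA over time was called without untreated replicate 3 at 24 h (-0.1551, adjusted p = 0.0276). The causes were not tested, except that median-ratio scaling shifts all genes over time.

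The replicate numbers showed no clear pairing of the libraries, though 3 libraries per group cannot exclude it. Of the untreated libraries, 3 correlated best with the exposed library of their own number. Deviations from group means in same-numbered libraries correlated at -0.083 to 0.103, with 1 of 6 pairs over 0.1. With the replicate block, 3 members were called at 24 h, 7 at 144 h and 5 for the difference between times (CD40 lost, adjusted p = 0.0516), and 5 over time. Among all 11713 genes the block gave 581 rises and 645 falls at 24 h, and 2824 and 3306 at 144 h. For the difference between times it gave 1633 higher and 1917 lower, and over time 2359 rises and 6136 falls. Depth limits CXCL8 and, at 24 h, IL11.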
